A study of Mus musculus with 2 samples.

Results

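The genes of NF-kB signalling described here are 10 of the 19465 genes measured on 2 mouse liver sections. They were chosen by name and not by a limit on their values, though earlier results of these data were known. They are the subunits Rela, Relb, Nfkb1 and Nfkb2 and the inhibitor Nfkbia with the kinase complex genes Ikbkb and Ikbkg. The others are the target genes Tnfaip3, Icam1 and Birc3. The livers came from 2 naive, untreated female littermates of 8 weeks, 1 AEG-1-WT and 1 AEG-1-C75S, born to matings of heterozygotes. AEG-1, encoded by Mtdh, is a scaffold protein, and in AEG-1-C75S mice, made with CRISPR/Cas9, the cysteine of AEG-1 that takes up palmitate is a serine. RNA was counted on barcoded spots with 10x Visium chemistry for fixed, embedded tissue. The study asked which genes and pathways, inflammatory signalling among them, differ between these livers and between the zones of the liver lobule.

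NF-kB is a family of dimeric transcription factors that rest in the cytoplasm, bound by inhibitors of the IkB family. When a ligand such as TNF, IL-1 or a bacterial product binds its receptor, the IKK complex phosphorylates the inhibitor, the inhibitor is degraded, and the dimer enters the nucleus. Its targets include genes that end the response, such as Nfkbia and Tnfaip3, and genes of adhesion, survival and recruitment of leukocytes. Kupffer cells, endothelium and hepatocytes of the liver all use the pathway. Much of its control acts on proteins, by phosphorylation, ubiquitin and location, and counts of transcripts do not show these steps.

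The promoters of 3 target genes are shown because NF-kB is known to act on them: Nfkbia and Tnfaip3 encode the feedback inhibitors, and Icam1 and Tnfaip3 are members that were higher in spots rich in immune cell markers. Of the 10 genes, 7 have an entry in RefSeq's table of promoters (build GRCm38.p6, the assembly also called mm10). Each sequence is the 250 bases before the start of transcription, 5′ to 3′ on the strand of the gene, and capitals mark matches, on either strand, to the 10-letter NF-kB consensus or to the shorter motif GGANNNTCC. A longer run of capitals can hold both motifs. The window of Nfkbia lies at chr12:55492648-55492897 on the minus strand, that of Tnfaip3 at chr10:19015411-19015660 on the minus strand, and that of Icam1 at chr9:21015690-21015939 on the plus strand.
Nfkbia: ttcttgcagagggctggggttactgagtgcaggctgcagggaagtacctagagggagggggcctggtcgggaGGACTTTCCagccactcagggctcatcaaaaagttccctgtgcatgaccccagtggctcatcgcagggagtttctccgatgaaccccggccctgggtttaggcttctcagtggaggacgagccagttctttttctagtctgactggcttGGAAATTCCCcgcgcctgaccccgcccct
Tnfaip3: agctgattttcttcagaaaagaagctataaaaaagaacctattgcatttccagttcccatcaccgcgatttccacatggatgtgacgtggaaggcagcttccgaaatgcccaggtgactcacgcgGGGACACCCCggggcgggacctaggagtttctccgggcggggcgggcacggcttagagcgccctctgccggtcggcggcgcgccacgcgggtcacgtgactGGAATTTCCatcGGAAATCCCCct
Icam1: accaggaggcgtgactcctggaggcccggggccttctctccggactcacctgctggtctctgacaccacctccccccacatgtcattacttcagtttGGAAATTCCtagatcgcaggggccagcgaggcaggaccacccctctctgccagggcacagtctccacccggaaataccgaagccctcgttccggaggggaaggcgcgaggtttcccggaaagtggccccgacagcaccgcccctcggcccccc

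Tnfaip3 held 2 matches to the consensus and 1 to GGANNNTCC in this window, Nfkbia held 1 and 2, and Icam1 held 0 and 1. The window of the target gene Birc3 and a further window of Tnfaip3, which are not shown, held 0 of each. Over all windows of a gene, Nfkb2, Tnfaip3 and Nfkbia, 3 of the 7 genes with an entry, held the consensus, and 5 of the 7 held GGANNNTCC. Among all 27025 genes of the table, 8.23% held the consensus and 8.30% held GGANNNTCC. A match describes the letters only, since binding was not measured.

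The AEG-1-WT section had 2309 spots with at most 50000 UMIs (unique molecular identifiers, each standing for a captured molecule) and 42246988 UMIs in all, and the AEG-1-C75S section had 2163 spots and 41674347 UMIs. A spot covers several cells, so fewer cells of a type and less RNA per cell cannot be told apart. The barcodes name positions on the slide, and 1896 of them occurred in both sections. Alb took 12.7% and 12.1% of the UMIs, and Mtdh had 3143 and 3056 UMIs. For each gene, the UMIs of all spots in a section or region were added up, divided by the total there and brought to a common scale, as CPM. With 1 mouse per genotype there are no replicates, spots cannot stand in for them, and the genotypes could not be tested against each other. Every interval is a 95% interval of counting error, and a ratio compares these sections, not the genotypes. A gene was called past the limit when the higher CPM exceeded the lower by at least 25%, which is 0.32 on the log2 scale, with at least 50 UMIs over both sections.

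Other differences ran alongside the genotype. The 9 Kupffer cell markers summed to 1359 CPM in AEG-1-WT against 1775 CPM in AEG-1-C75S, with 7 of 9 past the limit upwards and none at 0. All 7 immediate early genes were past the limit upwards, from 263 to 634 CPM in sum, while all 5 portal connective tissue markers were past it downwards, from 101 to 38.5 CPM. Cholangiocyte markers (4 of 5) and red blood cell markers (4 of 4) were past it downwards, and 7 glucocorticoid target genes went from 3811 to 1712 CPM in sum, with 4 lower and 2 higher. Of 12 clock genes compared, 7 were past the limit downwards and 3 upwards, from 799 to 475 CPM in sum. The part of these differences in the values below was not tested.

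None of the 10 genes was past the limit of 25% between the sections. Of the 12004 genes compared, 7.11% were higher and 14.4% were lower in AEG-1-C75S by this measure. Of these calls 33.1% were upwards, and 45.6% were with TMM factors. The median log2 ratio was -0.04 over the 10 genes and -0.05 over all genes compared. For Rela, Nfkb1, Nfkbia, Ikbkb and Birc3, the whole interval of the ratio lay within this limit, so a larger difference between these 2 sections lies outside counting error. For the other 5, the interval reached past it on at least 1 side.

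Rela (chr19:5637442-5648134) encodes p65, the activating subunit of the classical dimer. Positions of genes are those of RefSeq on GRCm38.p6. It had 1756 UMIs in AEG-1-WT against 1612 in AEG-1-C75S, or 41.6 and 38.7 CPM, a log2 ratio of -0.10 (interval -0.20 to -0.01). Nfkb1 (chr3:135584655-135691969), which encodes p105 and its product p50, the usual partner of p65, had 838 and 877 UMIs, or 19.8 and 21.0 CPM, a log2 ratio of 0.09 (-0.05 to 0.22). The ratios of the genes of the classical dimer thus lay on opposite sides of 0, both within the limit. The interval of Nfkb1 reached 0, and with TMM factors the ratio of Rela was -0.05.

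Relb and Nfkb2 encode RelB and p100, which is cut to p52, the subunits of the non-canonical branch. Relb (chr7:19606217-19629438) had 204 UMIs in AEG-1-WT against 246 in AEG-1-C75S, or 4.83 and 5.90 CPM, a log2 ratio of 0.29 (0.02 to 0.56), the highest of the 10. It passed the limit when the sections were scaled by TMM factors, at 0.35, and in 3 further settings given below. Nfkb2 (chr19:46300994-46312400) had 160 and 145 UMIs, or 3.79 and 3.48 CPM, a log2 ratio of -0.12 (-0.46 to 0.21). With these low counts, only a large difference in Nfkb2 would have been detectable.

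Nfkbia (chr12:55489409-55492647) encodes IkBα, the inhibitor that holds the classical dimer in the cytoplasm and that NF-kB itself induces. It had 4237 UMIs in AEG-1-WT against 4074 in AEG-1-C75S, or 100.3 and 97.8 CPM, a log2 ratio of -0.04 (-0.10 to 0.03), the narrowest interval of the 10. Ikbkb (chr8:22659205-22706589), the catalytic kinase IKKβ of the classical branch, had 2030 and 1820 UMIs, or 48.1 and 43.7 CPM, a log2 ratio of -0.14 (-0.23 to -0.05). Its interval lay below 0 and within the limit. Ikbkg (chrX:74393233-74456792), which encodes NEMO, the regulatory subunit of the IKK complex, had 90 and 105 UMIs, or 2.13 and 2.52 CPM, a log2 ratio of 0.24 (-0.18 to 0.66).

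Among the targets, Icam1 (chr9:21015940-21028814), the adhesion molecule that holds leukocytes on endothelium, had 652 UMIs in AEG-1-WT against 759 in AEG-1-C75S, or 15.4 and 18.2 CPM. Its log2 ratio was 0.24 (0.09 to 0.39), above 0 but not past the limit. Tnfaip3 (chr10:19000910-19015410), which encodes the ubiquitin-editing inhibitor A20, had 137 and 122 UMIs, or 3.24 and 2.93 CPM, a log2 ratio of -0.15 (-0.51 to 0.22). When spots were matched on their share of Kupffer cell markers, the ratio of Tnfaip3 was -0.33, past the limit, and that of Icam1 was 0.13. Birc3 (chr9:7847468-7873205), which encodes the ubiquitin ligase cIAP2, had 1092 and 1050 UMIs, or 25.8 and 25.2 CPM, a log2 ratio of -0.04 (-0.16 to 0.09).

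**Figure D1:**
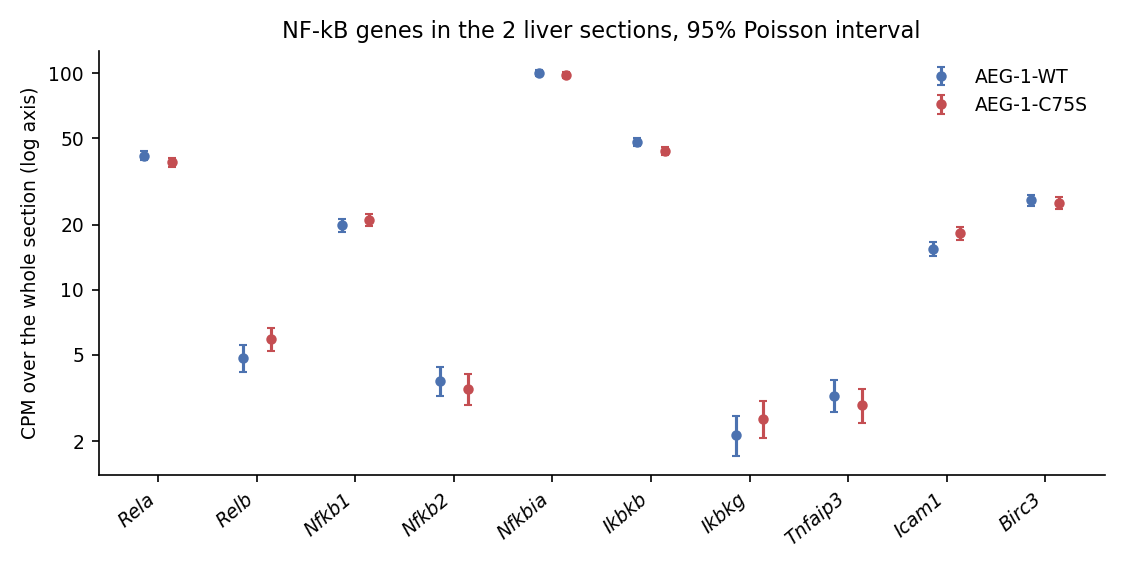
CPM of each of the 10 genes over the whole AEG-1-WT section (blue) and the whole AEG-1-C75S section (red), on a log axis, with 95% Poisson intervals. The points of a gene lie close together for all 10, and heights of different genes are not comparable, since each gene has its own probes.

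The counts were thin on single spots. Nfkbia had a UMI on 80.3% of the AEG-1-WT spots and 79.5% of the AEG-1-C75S spots, with at most 11 UMIs on a spot in each section. Rela was found on 51.2% and 50.2% of spots, Ikbkb on 56.1% and 54.2%, Birc3 on 37.3% and 36.9%, Nfkb1 on 29.5% and 32.6%, and Icam1 on 24.6% and 28.2%. The other 4 had a UMI on 3.90% to 10.3% of spots. As a background, the highest of 21 genes not expected in liver, the opsin Opn1sw, had a UMI on 0.346% of AEG-1-WT spots and 0.185% of AEG-1-C75S spots, and 14 and 15 of the 21 were at 0. Gfap, which was on the same list but which stellate cells can express, had a UMI on 1.13% and 1.80% of spots. The spots of AEG-1-C75S were deeper, with a median of 18808 UMIs against 16830. At an equal depth of 3000 UMIs per spot, reached by random thinning without 4 and 3 shallower spots, Icam1 was on 3.95% of spots (exact binomial interval 3.19% to 4.83%) in AEG-1-WT against 5.28% (4.37% to 6.31%) in AEG-1-C75S, and Nfkb1 on 5.68% (4.77% to 6.71%) and 7.22% (6.17% to 8.40%). For both genes the intervals of the sections overlapped. Ikbkg was then on 0.65% (0.36% to 1.07%) and 0.37% (0.16% to 0.73%), intervals that overlap, and no order is read from it.

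The variance of the UMIs between spots, beyond what depth gives, was 0.95 to 1.12 times the counting variance for the 10 genes in the 2 sections, where all genes with at least 500 UMIs had a median of 1.02 in each section. A group of spots with a far higher level would raise this number for genes with many UMIs, but little for genes with few. For Tnfaip3, on 137 and 122 UMIs, the number was 1.02 and 1.03, although Tnfaip3 was higher in the Kupffer marker-rich spots described below. The number is a description of sparse counts, and small or rare groups of spots could be missed.

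Of the 84 other genes of the pathway, 81 were measured and 71 had enough UMIs to be compared. Past the limit, 7 were higher and 9 lower in AEG-1-C75S, or 9.86% and 12.7% of those compared, beside 7.11% and 14.4% of all genes, and their median log2 ratio was 0.02. The balance turned with the scaling, to 9 higher and 6 lower with TMM factors, and to 10 and 6 without the spots richest in portal markers. Among the 10 other subunits, inhibitors and kinases, 1 was past the limit: Ikbke, an IKK-related kinase that phosphorylates interferon regulatory factors, had 341 UMIs in AEG-1-WT against 524 in AEG-1-C75S, or 8.07 and 12.6 CPM, a log2 ratio of 0.64 (0.44 to 0.84). Chuk, the kinase IKKα, had 4891 and 4761 UMIs, or 116 and 114 CPM, a log2 ratio of -0.02 (-0.08 to 0.04). So the 3 genes of the IKK complex, Chuk, Ikbkb and Ikbkg, were all within the limit, and the related kinase Ikbke was not. For Ikbkg, on 90 and 105 UMIs, the interval (-0.18 to 0.66) held the ratio of Ikbke. Without the spots richest in portal markers, Ikbkg was past the limit, at 0.36.

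Of 8 ligands, 5 could be compared, and 1 was past the limit. Tnf, the cytokine that gives the classical stimulus, had 24 UMIs in AEG-1-WT against 48 in AEG-1-C75S, or 0.57 and 1.15 CPM, a log2 ratio of 1.02 with a wide interval (0.28 to 1.79). It had a UMI on 1.04% and 2.03% of spots, near the level of Gfap (1.13% and 1.80%). With a minimum of 200 UMIs it was not compared. Among spots matched on the Kupffer marker share, its log2 ratio was 0.84. Il1a, an alarmin of the IL-1 family, had 307 and 358 UMIs, or 7.27 and 8.59 CPM, a log2 ratio of 0.24 (0.02 to 0.47).

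Of the 28 receptors and adaptors, 4 were higher and 3 lower past the limit. Il1r1, the signalling receptor of IL-1, had 44.9 CPM in AEG-1-WT against 67.0 CPM in AEG-1-C75S, a log2 ratio of 0.58 (0.49 to 0.66). Its co-receptor Il1rap went the other way, with 140 and 101 CPM and a log2 ratio of -0.47 (-0.53 to -0.41). The co-receptor of bacterial lipopolysaccharide Cd14 had 5.16 and 7.34 CPM, a log2 ratio of 0.51 (0.25 to 0.77), and Tlr2, which binds bacterial lipopeptides, had 4.02 and 5.57 CPM, a log2 ratio of 0.47 (0.18 to 0.76). Tab2, an adaptor that joins the kinase TAK1 to ubiquitin chains, had 78.0 and 108 CPM, a log2 ratio of 0.47 (0.41 to 0.53). Ticam1, the adaptor TRIF of Toll-like receptors, had 6.27 and 4.58 CPM, a log2 ratio of -0.45 (-0.73 to -0.18). Traf5, which was named after its value was seen, had a log2 ratio of -0.35 (-0.60 to -0.10), and -0.29 with TMM factors, within the limit. Tnfrsf1a, the main receptor of TNF, had 207 and 191 CPM, a log2 ratio of -0.11 (-0.16 to -0.07). Cd14 and Tlr2 are expressed by Kupffer cells and other myeloid cells, whose markers were also higher. The part of these cells in the ratios of Cd14 and Tlr2 was not tested. Among spots matched on the Kupffer marker share, the log2 ratio of Cd14 was 0.23 and that of Tlr2 0.30, neither past the limit. The value of Tlr2 lay inside its interval over all spots, and that of Cd14 lay below its own. Of all genes compared, 706 were higher and 1666 lower past the limit among matched spots, beside 854 and 1726 over all spots. Among the matched spots, Il1r1 and Tab2 stayed past it upwards, and Il1rap, Ticam1 and Traf5 downwards.

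Cyld, a deubiquitinase that restrains the pathway, was the 1 of 11 ubiquitin-editing genes past the limit, with 25.8 CPM in AEG-1-WT against 20.2 CPM in AEG-1-C75S and a log2 ratio of -0.35 (-0.49 to -0.22). It was within the limit with TMM factors, at -0.30, and without the spots richest in portal markers, at -0.32. Tax1bp1, an adaptor of A20, had 161 and 162 CPM, a log2 ratio of 0.01 (-0.04 to 0.06).

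Of the 27 other targets, 24 were measured and 17 could be compared, and 1 was higher and 5 were lower past the limit. Tnfaip2 had 27.3 CPM in AEG-1-WT against 38.2 CPM in AEG-1-C75S, a log2 ratio of 0.48 (0.37 to 0.59). The lower ones were the acute phase gene Saa3, at -0.61 (-0.92 to -0.31), Cd83, a marker of activated antigen-presenting cells, at -0.53 (-0.93 to -0.13), the iron-binding defence protein Lcn2, at -0.45 (-0.61 to -0.29), the gelatinase Mmp9, at -0.43 (-0.90 to 0.04), and the neutrophil chemokine Cxcl1, at -0.34 (-0.53 to -0.15). Without the spots richest in portal markers, Mmp9 was at -0.14 and Cxcl1 at -0.26, both within the limit, and the targets past it were 3 higher (Ccl5, Cxcl9 and Tnfaip2) and 3 lower (Lcn2, Saa3 and Cd83). Cxcl1 was also within it with TMM factors, at -0.28. With spots matched on the Kupffer marker share, Saa3 was at -0.90, Cd83 at -0.85, Mmp9 at -0.63, Lcn2 at -0.40 and Cxcl1 at -0.36. Tnfaip2 was then at 0.39. Beside these targets, 3 of 3 compared neutrophil markers were past the limit upwards, from 10.0 to 16.8 CPM for the whole list, and 4 of 9 other acute phase genes were past it upwards and 0 downwards, from 27054 to 35976 CPM. Their part in these values was not tested. Cfb, of the alternative complement pathway, had 379 and 358 CPM, a log2 ratio of -0.08 (-0.11 to -0.05). The median log2 ratio was -0.07 over the targets and 0.05 over the receptors and adaptors.

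**Figure D2:**
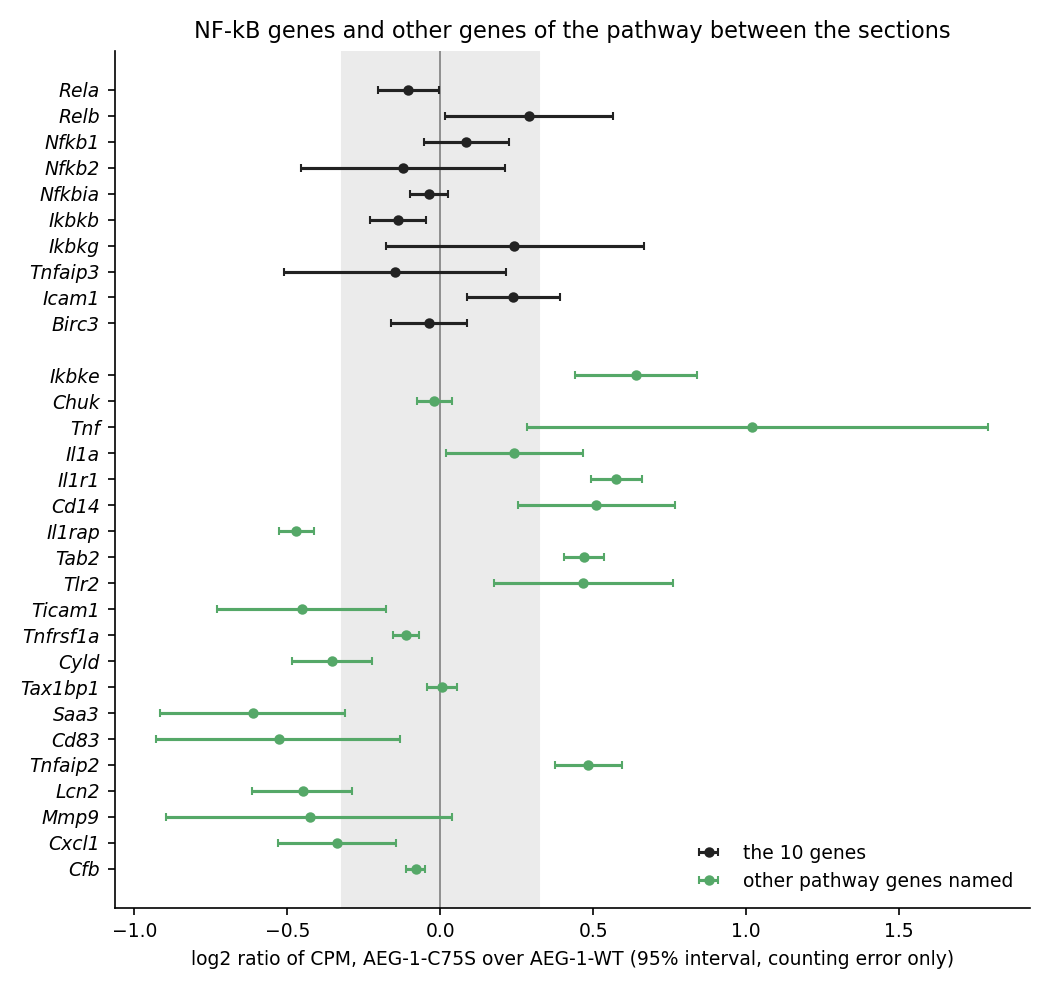
Log2 ratio of CPM, AEG-1-C75S over AEG-1-WT, for the 10 genes (black) and the other pathway genes named by rule (green), with 95% intervals of counting error and the range within the limit of 25% in grey. All 10 black points lie in the grey band, while Ikbke, Tnf, Il1r1, Cd14, Tab2, Tlr2 and Tnfaip2 lie to its right. Il1rap, Ticam1, Cyld, Saa3, Cd83, Lcn2, Mmp9 and Cxcl1 lie to its left.

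Along the axis from portal to central vein, Rela, Nfkb1, Nfkbia, Ikbkb, Icam1 and Birc3 were close to even. Spots of each section were ranked by the ratio of Cyp2f2, a periportal gene, to Cyp2e1, a pericentral gene, and divided into 5 bins of equal size. The ranking spread these genes as it was made to: the log2 ratio of the most periportal to the most pericentral bin was 2.72 in AEG-1-WT against 2.29 in AEG-1-C75S for Cyp2f2, and -2.61 and -2.39 for Cyp2e1. None of the 10 genes was past the limit in the same direction in both sections, where 5.10% of the 11066 genes compared were higher and 9.62% were lower in the periportal bin of both. Relb, Nfkb2, Ikbkg and Tnfaip3 had few UMIs in a bin, so an even level is not shown for them. The highest bin of Tnfaip3 in AEG-1-C75S was 2.10 times the lowest, and that of Nfkb2 was 1.78 times the lowest.

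With all spots ranked on this axis, Nfkbia had the clearest gradient, towards the central vein. From the periportal to the pericentral bin it had 90.7, 100.6, 103.7, 99.6 and 106.5 CPM in AEG-1-WT and 95.1, 90.8, 99.4, 96.8 and 107.1 CPM in AEG-1-C75S. Bin 5, the pericentral one, was the highest in both sections, and the lowest was bin 1 in AEG-1-WT and bin 2 in AEG-1-C75S. The log2 ratio of the periportal to the pericentral bin was -0.23 (-0.38 to -0.09) and -0.17 (-0.31 to -0.03), so both intervals lay below 0 and the difference was under 25%. In 7 other settings of the axis the ratio stayed below 0 in both sections, but its interval reached 0 in AEG-1-C75S with an axis from 6 portal and 3 central genes and in AEG-1-WT with 10 bins. Across the bins, its variance was 2.84 and 3.19 times what counting gives, against medians of 1.66 and 1.68 over all genes with at least 500 UMIs. Of these genes, 41.9% and 42.8% were above 2, so the values of Nfkbia were not unusual.

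Ikbkb had 45.4 and 50.7 CPM in the periportal and pericentral bins of AEG-1-WT and 38.7 and 45.7 CPM in those of AEG-1-C75S, log2 ratios of -0.16 (-0.37 to 0.05) and -0.24 (-0.46 to -0.02). Without the spots richest in portal markers, Ikbkb was at -0.28 in both sections, with both intervals below 0. For the other 8 genes, the interval of the ratio reached 0 in both sections. In other settings of the axis it did not always. Rela in AEG-1-WT was at -0.41 (-0.66 to -0.16) without the spots richest in portal markers, and Tnfaip3 in AEG-1-C75S was at 0.82 (0.10 to 1.56) with fewer bins. With all spots on the first axis, Relb, Nfkb1, Nfkb2 and Tnfaip3 had ratios of the same sign in both sections, and Rela, Ikbkg, Icam1 and Birc3 had ratios of opposite signs, between -0.21 and 0.19.

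**Figure D3:**
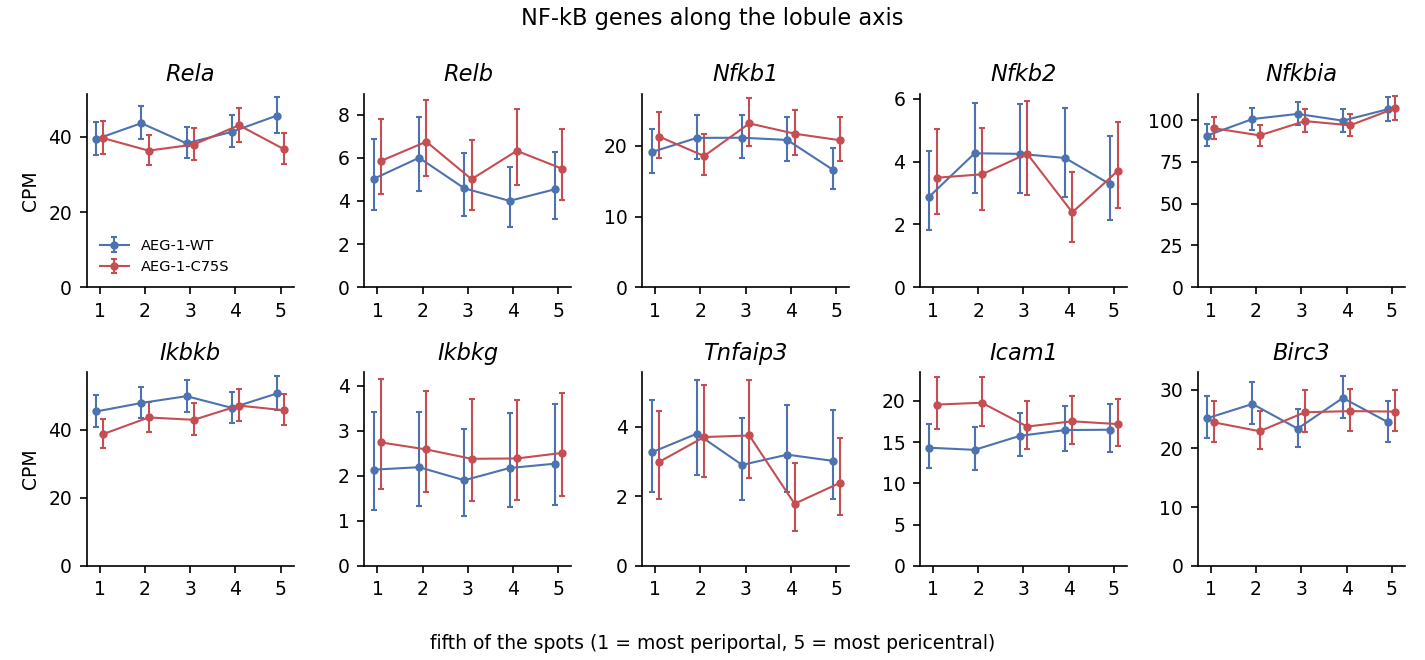
CPM of each of the 10 genes in 5 groups of spots from the most periportal (1) to the most pericentral (5), in the AEG-1-WT section (blue) and the AEG-1-C75S section (red), with 95% Poisson intervals and axes from 0. The lines of Rela, Nfkb1, Nfkbia, Ikbkb, Icam1 and Birc3 are near flat, and those of Relb, Nfkb2 and Tnfaip3 vary more, on few UMIs. Nfkbia is highest in bin 5 of both sections, and the red line of Icam1 is farthest above the blue one in bins 1 and 2.

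Within the bins, the sections were compared again. Bins were made by rank within each section, so the same bin need not be the same place in the lobule. In bin 5, Cyp2f2 had 370 CPM in AEG-1-WT against 569 CPM in AEG-1-C75S. None of the 10 genes was past the limit in the same direction in all 5 bins, as 1.95% of genes were upwards and 3.78% downwards. Relb, Ikbkg and Icam1 were higher in AEG-1-C75S in all 5 bins by some amount, and so were 13.2% of all genes, while 24.1% were lower in all 5. Icam1 had 14.3 CPM in AEG-1-WT against 19.6 CPM in AEG-1-C75S in the periportal bin, a log2 ratio of 0.45 (0.09 to 0.81), and 14.1 and 19.8 CPM in the next bin, a ratio of 0.49 (0.15 to 0.84). In the other bins its log2 ratio was 0.10, 0.09 and 0.06, with intervals that reached 0. The intervals of the bins overlapped, and whether the difference varied along the axis was not tested. For Relb, the ratio ran from 0.13 to 0.66 over the bins, and for Ikbkg, with 17 to 23 UMIs in a bin, from 0.13 to 0.36.

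The 10% of spots with the largest share of UMIs from the markers of a cell type, which were 231 spots of AEG-1-WT and 216 spots of AEG-1-C75S, were compared with the other spots of their section. This sets each section against itself, so each section gives its own reading. The sets of spots for different markers can overlap, and they are not cell types. A gene was called when it was past the limit in the same direction in both sections. Values past it in a single section are given without a share of all genes, since such genes were not counted.

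Spots rich in the antigen presentation genes Cd74, H2-Aa, H2-Ab1 and H2-Eb1, which B cells, dendritic cells and macrophages express, had more of several NF-kB genes. Nfkb1, Nfkb2, Tnfaip3 and Icam1 were past the limit upwards in both sections, 4 of 10, where 13.0% of all genes were higher and 0.587% were lower. Nfkb1 had 25.6 CPM in the rich spots and 19.2 CPM in the others of AEG-1-WT, and 26.6 and 20.5 CPM in AEG-1-C75S, log2 ratios of 0.41 (0.10 to 0.71) and 0.37 (0.05 to 0.68). Icam1 had 21.1 and 14.8 CPM in AEG-1-WT, and 24.6 and 17.6 CPM in AEG-1-C75S, log2 ratios of 0.51 (0.17 to 0.84) and 0.48 (0.14 to 0.80). For these 2 genes, both intervals lay above 0.

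Nfkb2 had 6.64 and 3.48 CPM in AEG-1-WT and 4.80 and 3.36 CPM in AEG-1-C75S, log2 ratios of 0.93 (0.28 to 1.53) and 0.52, the second with an interval that reached 0. Tnfaip3 had ratios of 0.68 (-0.08 to 1.37) and 0.48 (-0.44 to 1.29), from 20 and 14 UMIs in the rich spots. Relb, Rela and Birc3 were past the limit in AEG-1-WT only, at 0.75, 0.35 and 0.40, against 0.29, 0.09 and 0.29 in AEG-1-C75S, and the differences between the sections were not tested. The median log2 ratio of the 10 genes was 0.41 in AEG-1-WT against 0.29 in AEG-1-C75S, beside 0.13 and 0.06 over all genes. When the richest spots and the others were given the same mix of bins of the axis, the 4 calls remained and Birc3 was called too. Of all 11066 genes, 1422 were then higher. At 1.5-fold, none of the 10 was called, where 628 of all 11066 genes were higher.

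Tnfaip3 was higher in spots rich in Kupffer cell markers such as Clec4f, Vsig4 and Cd5l. It had 5.71 CPM there and 3.01 CPM in the other spots of AEG-1-WT, and 5.42 and 2.67 CPM in AEG-1-C75S. The log2 ratios were 0.92 (0.18 to 1.60) and 1.02 (0.27 to 1.71), and both intervals lay above 0, on 21 UMIs in the rich spots of each section. This was the 1 call of the 10 genes that also passed 1.5-fold. With the richest 5% of spots, both intervals reached 0, at ratios of 1.03 and 1.02. Ikbkg was lower, on 6 and 5 UMIs in the rich spots, with intervals that reached 0. Of all genes, 5.91% were higher and 2.40% were lower in these spots of both sections. Nfkb2 differed between the sections here, with a log2 ratio of -0.37 (-1.40 to 0.51) in AEG-1-WT but 1.09 (0.42 to 1.71) in AEG-1-C75S, a difference that was not tested.

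**Figure D4:**
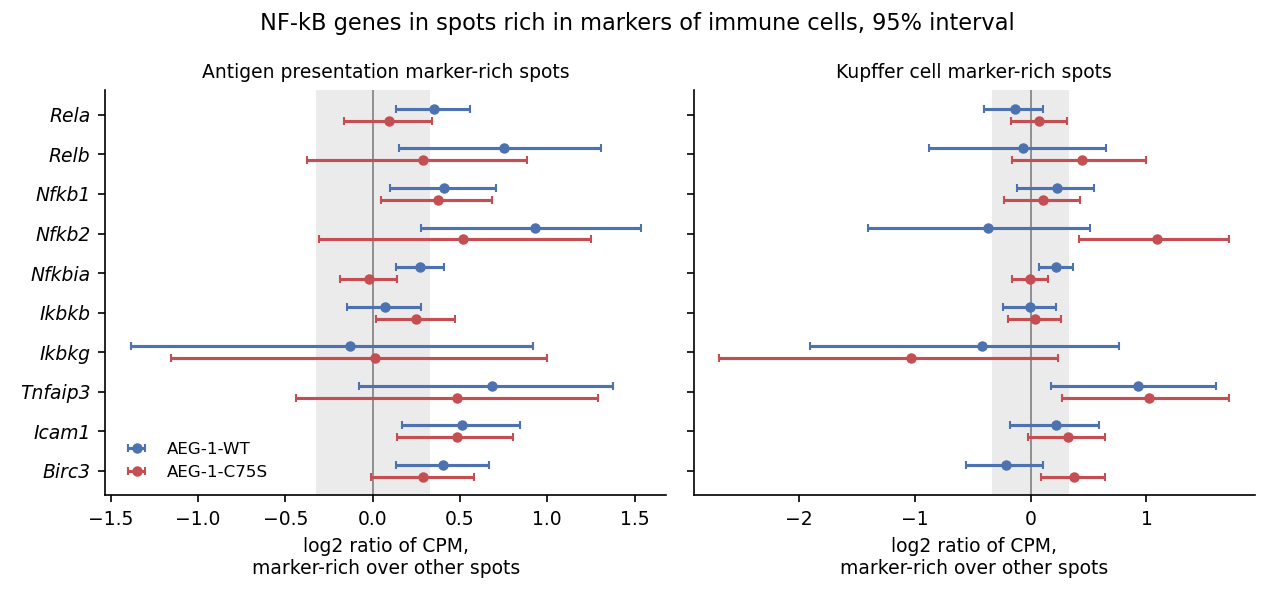
Log2 ratio of CPM, marker-rich over other spots, for the 10 genes in the AEG-1-WT section (blue) and the AEG-1-C75S section (red), with 95% intervals of counting error and the range within the limit of 25% in grey. For antigen presentation (left), Nfkb1 and Icam1 have both intervals above 0, and for Kupffer cell markers (right), Tnfaip3 does.

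In spots rich in markers of sinusoidal endothelium, Nfkb2 and Tnfaip3 were called lower, each on 8 to 10 UMIs and with intervals that reached 0, where 2.55% of all genes were higher and 2.40% were lower. For interferon response genes, Nfkb2 was called higher, at 0.42 and 0.36 with intervals that reached 0, where 2.27% of all genes were higher and 1.64% were lower. None of the 10 was called in spots rich in stellate cell markers (4.74% of all genes higher, 1.44% lower), cholangiocyte markers (10.2% and 2.53%) or portal connective tissue markers (11.5% and 0.759%). In AEG-1-WT, Rela, Relb, Nfkb1, Nfkb2 and Tnfaip3 were past the limit for portal connective tissue markers, at 0.33, 0.70, 0.43, 0.40 and 1.03. Of these, only the interval of Nfkb2 reached 0. In AEG-1-C75S they were at 0.09, 0.27, 0.13, 0.01 and -0.66, differences that were not tested. For cholangiocyte markers, Relb, Nfkb2 and Ikbkg were past it upwards in AEG-1-WT only. For stellate cell markers, Nfkb2 and Icam1 were past it upwards in AEG-1-WT only, and Tnfaip3 and Birc3 in AEG-1-C75S only. With the richest 5% of spots, Relb and Nfkb2 were called higher for stellate cell markers, Nfkb2 and Tnfaip3 for cholangiocyte markers, and Relb and Nfkb1 for portal connective tissue markers. Of the 11066 genes compared, 713, 1754 and 1983 were then called higher for these lists, in this order. The spots richest in portal connective tissue markers were shallow in AEG-1-C75S, with a median of 9644 UMIs against 19384 in the other spots. These markers summed to 101 CPM in AEG-1-WT against 38.5 CPM in AEG-1-C75S, so the richest spots need not be the same tissue. Over all genes, the median log2 ratio for these markers was 0.12 in AEG-1-WT against 0.06 in AEG-1-C75S.

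The genes whose profile over the 10 section-by-bin values was most like that of a member were found among 6887 genes with at least 1000 UMIs, for the 6 members with at least 500 UMIs. For Nfkbia they were Man1b1, Gtf3c4 and Fnip1, at Pearson correlations of 0.97, 0.97 and 0.96, and for Ikbkb they were Tmbim4, Mylip and Serinc1, at 0.96, 0.95 and 0.94. For Nfkb1 they included Pcm1 and Rnf213, at 0.94 and 0.89, and for Icam1 they were Nme6, Prpf4 and Napg, at 0.91, 0.90 and 0.88. Rela was followed by Spsb3, Borcs6 and Rbm48, at 0.89, 0.89 and 0.88, and Birc3 by Usp15, Ints9 and Unk, at 0.89, 0.88 and 0.85. The points share their library and their depth, and the profiles of the 6 members spanned only 1.12-fold to 1.27-fold within a section, so these are descriptions of near flat profiles. Taking the most alike of 6887 genes over 10 values gives high correlations by the choice alone. The correlations therefore do not show that these genes vary together.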

How the data were processed

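Each of the 2 liver sections was measured on the spots of a 10x Visium slide. Space Ranger 2.0.1 with the mm10 reference was used by the authors to make the deposited tables, which hold raw, not normalized UMI counts for 19465 genes on spots below tissue and 0 columns of other samples. Of 11 repeated gene symbols, the first entry was used. Spot coordinates were not used here.

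Spots with more than 50000 UMIs were removed (7 in AEG-1-WT, 4 in AEG-1-C75S), and total UMIs per spot ran from 11460 to 29951 and from 6599 to 33880 between the 5th and 95th percentiles. The software was python 3.11.15 (numpy 2.4.6; pandas 2.3.3; scipy 1.17.1), and edgeR 4.0.16 in R 4.3.3 gave TMM factors. Intervals are exact Poisson for sums and exact binomial (Clopper-Pearson) for shares and for ratios of a pair of sums, at 95%. Spots were ranked along the axis within each section by the UMIs of Cyp2f2 plus 1 over those of Cyp2e1 plus 1. Axis and marker-rich comparisons required 50 UMIs in each section. The ratios and intervals were tried on simulated sums that held counting error only, so this says nothing of variation between mice or sections.

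Beside the members, the text names, in each pathway list, the genes past the limit of 25% (at most the 6 largest) and the gene with most UMIs, and the 3 genes most like each member with at least 500 UMIs. This rule picked 1 gene that is left out here. The members and lists were chosen with earlier results of these data known. RefSeq names and promoters were matched by symbol (10 and 7 of the 10 genes). Alternatives were no spot filter, other scalings and minimums of UMIs, calls at 1.1-fold and 1.5-fold, equal weight per spot, spots matched on total UMIs, spots without those rich in portal markers, thinned spots, other axes and numbers of bins, other sets of marker-rich spots and, added after the data had been seen, spots matched on the Kupffer marker share.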

Additional observations from a re-analysis of the deposited data

How the results depend on the processing

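No paired analysis was possible because each genotype had 1 section. In all 80 values of the 10 genes under 8 other settings, the log2 ratio between the sections stayed inside its main interval. The count of the 10 genes past 25% was 0 and became 1 (Relb) with totals without the 20 most abundant genes, with TMM factors and with centring on the median gene, at log2 ratios of 0.33, 0.35 and 0.34. It was 1 (Tnfaip3, lower) with spots matched on the Kupffer marker share, 2 (Relb at 0.39 and Ikbkg at 0.36, higher) without the spots richest in portal markers, and 5 with a call at 1.1-fold. Of all 12004 genes compared, 2305 were higher and 4140 lower at 1.1-fold, and 275 and 624 at 1.5-fold. Without the spots richest in portal markers, 1031 of 11711 were higher and 1436 lower, and with no minimum of UMIs 2076 and 3515 of 15743. Of the other pathway genes, 16 were called (7 higher, 9 lower), which became 3 (2 and 1) at 1.5-fold and 38 (19 and 19) at 1.1-fold, and the number higher was 12 with no minimum of UMIs. It was 9 higher and 6 lower with each of the 3 other scalings, and 10 and 6 without the spots richest in portal markers. Over all genes, 33.1% of calls were upwards, against 42.8%, 45.6% and 44.7% with the 3 other scalings. Along the axis, 1 of the 10 was called on spots thinned to 3000 UMIs (Ikbkg) and 1 without the spots richest in portal markers (Nfkb2), both lower in the periportal bin. In these settings, 931 of 11066 and 1227 of 10823 genes were called lower there. The 9 calls in marker-rich spots became 1 at 1.5-fold and 13 with the richest 5% of spots, where 0 became 2 for each of the stellate, cholangiocyte and portal connective tissue markers, and Tnfaip3 in spots of AEG-1-C75S rich in endothelial markers turned to 0.25 with the richest 5% of spots. The counts over all 11066 genes moved too. For antigen presentation, 1440 were higher, against 628 at 1.5-fold and 1981 with the richest 5%. For Kupffer cell markers these counts were 654, 248 and 837. The causes of these moves were not tested. The 4 members with the fewest UMIs (Relb, Nfkb2, Ikbkg, Tnfaip3) had intervals past the limit of 25% on at least 1 side, so depth limits what can be said of them.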

Other observations

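NF-kB motifs in promoters were set beside the ratios between the sections, a comparison chosen after the values had been seen. Of 1008 compared genes whose promoter held the NF-kB consensus, 6.55% were higher by at least 25% and 14.2% lower by the same limit in AEG-1-C75S, with a median log2 ratio of -0.04. Of 8460 genes whose promoter did not, 6.81% were higher and 14.1% lower, with a median of -0.05. For GGANNNTCC, 7.08% of 961 genes with it were higher and 15.9% lower, and 6.75% of 8507 genes without it were higher and 13.9% lower, with medians of -0.05 in both. A match to these letters does not make a gene a target of NF-kB, since binding was not measured. The comparison therefore cannot show whether targets of NF-kB differed between the sections.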
